A study of Mus musculus with 6 samples.

Results

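Levels of 10 of the 55487 counted genes, known from the response to low oxygen and lying outside glycolysis, were compared in αTC1 cells. The cells were treated with an inhibitor of the splicing factor SMNDC1 or with the solvent DMSO, and no exposure to low oxygen is stated. The genes are Bnip3, Bnip3l, Ddit4, Vegfa, Adm, Car9, Ankrd37, Ndrg1, Bhlhe40 and Bhlhe41, taken by gene symbol. The list was chosen from the comparison described here, after targets of the hypoxia-inducible factor (HIF) had been seen to be higher with the inhibitor. Their differences between treatments, and the number of them that passed the rule used for all genes, are therefore a description only and are no test of the list.

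αTC1 cells come from a mouse glucagonoma, a tumour of the pancreatic α cells that secrete glucagon. Smart-seq2 RNA sequencing covered 3 libraries of cells treated with the inhibitor and 3 of cells treated with the solvent DMSO. All were of the same line and are marked WT in the column headers. The sequencing served to read cellular effects of the inhibitor. The labels give no dose, duration, oxygen level or batch, and they do not say whether the 3 libraries of a treatment come from separate cultures. The study states for its cell culture work that both treatments of a replicate were divided from 1 batch of cells and handled together, so the p-values measure the spread between such replicates at most. The labels name the inhibitor by a code only, which was taken to stand for compound 1 of the study. The study calls compound 1 non-selective and reports effects on SMN, a protein with a similar Tudor domain. It leaves other off-targets to be examined. The part of SMNDC1 in the differences below was not tested.

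HIF is a transcription factor whose α subunits are marked for destruction by prolyl hydroxylases while oxygen and iron are at hand. When hydroxylation stops, the subunits accumulate, pair with HIF-1β and bind short sites with the core ACGTG or GCGTG near their targets. Glycolytic enzymes are the best known of these, and the genes here carry other arms of the response: removal of mitochondria, restraint of growth signalling, signals to blood vessels, control of pH and repression of transcription.

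All 6 libraries were deep, with 59070705 to 94747943 counts, and each inhibitor library was deeper than each DMSO library. Of the counts between 1 and 10, 78.1% were even, which means that counts need not be separate fragments, and floors based on counts cover counting error only. A gene was called when edgeR's quasi-likelihood test gave a Benjamini-Hochberg adjusted p of 0.1 or less together with a log2 fold change of 1 or more in size. Of the α cell markers, Gcg, Chga, Pcsk2, Slc38a5, Irx2 and Isl1 were well expressed in every library. Gcg lay at 2400 to 3020 FPKM (deposited values, scaled for gene length and library) with the inhibitor and at 17100 to 19400 with DMSO. Of the 9 α cell markers tested, 3 were called (Gcg, Chga and Slc38a5), each lower with the inhibitor, beside 4.16% of all tested genes. In bulk RNA, fewer expressing cells and less RNA per cell cannot be told apart. The part of this difference in the results below was not tested. All 3 markers of delta and PP cells were at 0 throughout. Endothelial markers summed to between 0.207 and 0.368 FPKM with the inhibitor, from Pecam1 in libraries A and C and from Tek in library B, and to 0 with DMSO, with Cdh5 and Tie1 at 0. Fibroblast markers summed to 0.0402 FPKM or less with the inhibitor and to 0.279 to 0.842 with DMSO, with Col1a2 called lower. Beta cell markers stayed at or under 4.82 FPKM in sum, with Ins1 and Pdx1 at 0. Leukocyte markers summed to 5.85 to 13.9 FPKM with the inhibitor and 4.28 to 6.25 with DMSO, nearly all of it Cd68, and Cd3e was at 0.

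Promoter sequences are shown first because HIF acts through its core motif. The set of RefSeq promoters used here held 7 of the 10 genes, and the 3 without an entry in it are Bnip3l, Ndrg1 and Bhlhe40. Each line gives the 250 bases before the start site of transcription, 5′ to 3′ on the strand of the gene (build GRCm38.p6). Capitals mark ACGTG or GCGTG on the printed strand, or CACGT or CACGC where the motif lies on the opposite strand. The windows are chr7:138909507-138909756 (minus strand) for Bnip3, chr10:59951771-59952020 (minus) for Ddit4, chr17:46032378-46032627 (minus) for Vegfa, chr7:110627407-110627656 (plus) for Adm, chr4:43506776-43507025 (plus) for Car9, chr8:45999851-46000100 (minus) for Ankrd37 and chr6:145865421-145865670 (minus) for Bhlhe41.
Bnip3: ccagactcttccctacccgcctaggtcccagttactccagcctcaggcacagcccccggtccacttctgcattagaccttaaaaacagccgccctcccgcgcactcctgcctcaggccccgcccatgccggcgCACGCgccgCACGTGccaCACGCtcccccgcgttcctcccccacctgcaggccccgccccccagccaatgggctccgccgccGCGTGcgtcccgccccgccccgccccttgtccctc
Ddit4: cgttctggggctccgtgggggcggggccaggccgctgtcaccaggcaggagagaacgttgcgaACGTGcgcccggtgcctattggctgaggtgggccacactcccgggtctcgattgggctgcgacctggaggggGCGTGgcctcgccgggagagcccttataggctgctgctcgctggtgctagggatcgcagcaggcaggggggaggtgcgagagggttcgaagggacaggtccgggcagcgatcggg
Vegfa: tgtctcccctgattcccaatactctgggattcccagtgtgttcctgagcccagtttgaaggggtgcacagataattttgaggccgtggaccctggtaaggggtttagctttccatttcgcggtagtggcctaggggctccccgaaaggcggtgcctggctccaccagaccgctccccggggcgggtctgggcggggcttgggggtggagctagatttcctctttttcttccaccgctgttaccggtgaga
Adm: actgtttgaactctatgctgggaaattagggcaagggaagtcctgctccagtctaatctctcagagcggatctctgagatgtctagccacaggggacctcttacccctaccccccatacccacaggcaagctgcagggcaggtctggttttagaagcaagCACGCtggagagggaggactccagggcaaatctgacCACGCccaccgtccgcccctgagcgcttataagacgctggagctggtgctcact
Car9: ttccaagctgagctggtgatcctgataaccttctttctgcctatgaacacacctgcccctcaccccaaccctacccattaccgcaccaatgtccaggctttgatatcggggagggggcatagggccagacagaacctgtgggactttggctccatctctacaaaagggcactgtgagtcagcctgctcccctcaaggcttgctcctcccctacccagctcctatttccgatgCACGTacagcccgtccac
Ankrd37: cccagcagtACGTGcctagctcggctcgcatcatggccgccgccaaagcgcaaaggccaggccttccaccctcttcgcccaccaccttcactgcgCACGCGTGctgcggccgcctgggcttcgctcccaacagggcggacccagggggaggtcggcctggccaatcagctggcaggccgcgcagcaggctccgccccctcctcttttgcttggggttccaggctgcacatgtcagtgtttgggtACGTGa
Bhlhe41: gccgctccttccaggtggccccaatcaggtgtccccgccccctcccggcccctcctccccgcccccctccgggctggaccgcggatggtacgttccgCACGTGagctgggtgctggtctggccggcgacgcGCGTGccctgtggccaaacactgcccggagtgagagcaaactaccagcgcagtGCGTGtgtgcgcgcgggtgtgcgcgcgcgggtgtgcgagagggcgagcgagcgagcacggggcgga

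In the window of 250 bases before to 50 bases after the start, 6 of the 7 promoters held the motif at 18 sites in all, both strands searched. Bnip3 had 5 sites, the first bases of which lay 117, 108, 107, 99 and 35 bases upstream, and Ankrd37 and Bhlhe41 had 4 each. Ddit4 and Adm had 2 each, Car9 had 1, and the Vegfa window had none, which says nothing of sites elsewhere. The promoter set held 2 entries for Vegfa, of which 1 is shown, and 1 for each of the other genes. In Bnip3 and Bhlhe41 a pair of sites formed the palindrome CACGTG, an E-box that other factors also bind. The start site used for Ankrd37 lies 5857 bases inside the gene from the 5′ end of its annotated span, so its window is that of a downstream start. The motif is common: it was present in 43.8% of all 32851 promoters, in 62.4% of the promoters of tested genes and in 72.4% of those with at least 60% G and C. These matches describe the sequence and are not evidence of binding.

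**Figure D1:**
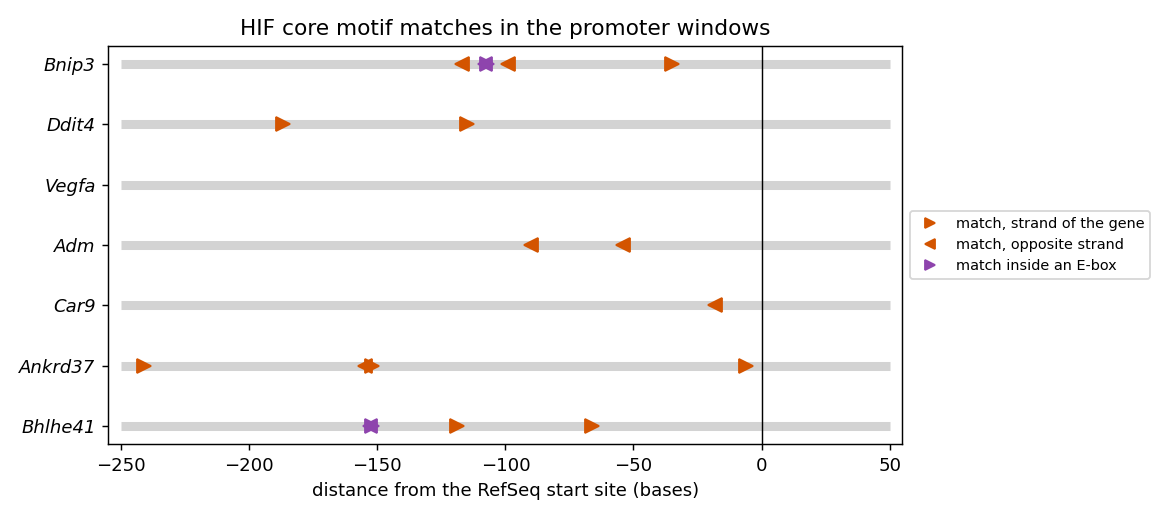
Position of each core motif (ACGTG or GCGTG) in the 7 promoter windows, in bases from the RefSeq start site. Arrowheads point along the strand of the match, and purple marks matches that overlap in CACGTG, seen in Bnip3 and Bhlhe41. The Vegfa window is empty.

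Of the 10 genes, 8 had enough counts to be tested, and Adm and Car9 did not. By the rule for calls, 5 of the 8 were called higher with the inhibitor (Bnip3, Ankrd37, Ndrg1, Bhlhe40 and Bhlhe41) and 3 were not called. All 8 log2 fold changes were above 0. The same rule called 6.25% of all 15082 tested genes higher and 4.16% lower, and nothing is read from the contrast because it chose the genes. Of all called genes, 60% were higher with the scaling used here (TMM) and 78.2% with library size as the only scaling. In 7 of the 8 genes every inhibitor library lay above every DMSO library, against 18.2% of all tested genes. The median log2 fold change of the 8 was 2.64, beside 0.0411 for all tested genes.

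Bnip3 and Bnip3l encode mitophagy receptors of the outer mitochondrial membrane. Bnip3 (ENSMUSG00000078566) lies on the minus strand of chromosome 7, from 138890836 to 138909519. It had 485, 430 and 371 CPM (counts scaled for library size, with TMM factors) in inhibitor libraries A, B and C, and 31.0, 26.6 and 38.6 CPM in DMSO libraries A, B and C. The groups were far apart, and the spread within each was small beside the distance between them. The fold was 13.4, a log2 fold change of 3.74 with a standard error of 0.182. Of its exon bases, 22.3% are shared with the antisense Gm45507, which had 0 counts in all libraries. Counting ignored strand, so how reads in the shared bases were assigned cannot be told. The 0 counts therefore do not show that Gm45507 is silent. Bnip3l (ENSMUSG00000022051; chromosome 14, 66985239 to 67008877, minus strand) had 139, 159 and 160 CPM with the inhibitor and 88.1, 90.2 and 123 CPM with DMSO. Its groups did not overlap either, but DMSO library C came close to the lowest treated library. At 1.52-fold (log2 fold change 0.61, standard error 0.157) it stayed under the fold limit of the call.

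The order of these receptors differed between the treatments. On the FPKM scale, which accounts for gene length, Bnip3 was below Bnip3l in all 3 DMSO libraries, at ratios of 0.622, 0.522 and 0.556. With the inhibitor the ratios were 6.17, 4.77 and 4.09, so Bnip3 stood above Bnip3l in each of these libraries.

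Both genes have near-identical copies elsewhere in the genome, between which reads may be split. Bnip3 shares 559 bases at 98.6% identity with the pseudogene Gm6532 and 858 bases at 98.3% with the non-coding AC160336.1, both on chromosome 14. Gm6532 had 15.1, 14.9 and 13.7 CPM with the inhibitor and 0.871, 0.893 and 1.07 CPM with DMSO, and AC160336.1 had 8.48 to 9.56 CPM against 1.01 to 1.22 CPM. Their direction was that of Bnip3, and whether the reads come from the copies or from Bnip3 cannot be told apart. The 4 copies together, of which Gm16439 was at 0 throughout, held 4.64% to 6.73% of the reads summed with those of Bnip3. With them included, the ratio of mean CPM was 13.3 in place of 13.4. For Bnip3l, the copy Bnip3l-ps on chromosome 12 held 4.35% to 6.34%, and the ratio was 1.54 with it and 1.52 without. The copies were picked by sequence after the values of their parent genes had been seen.

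**Figure D2:**
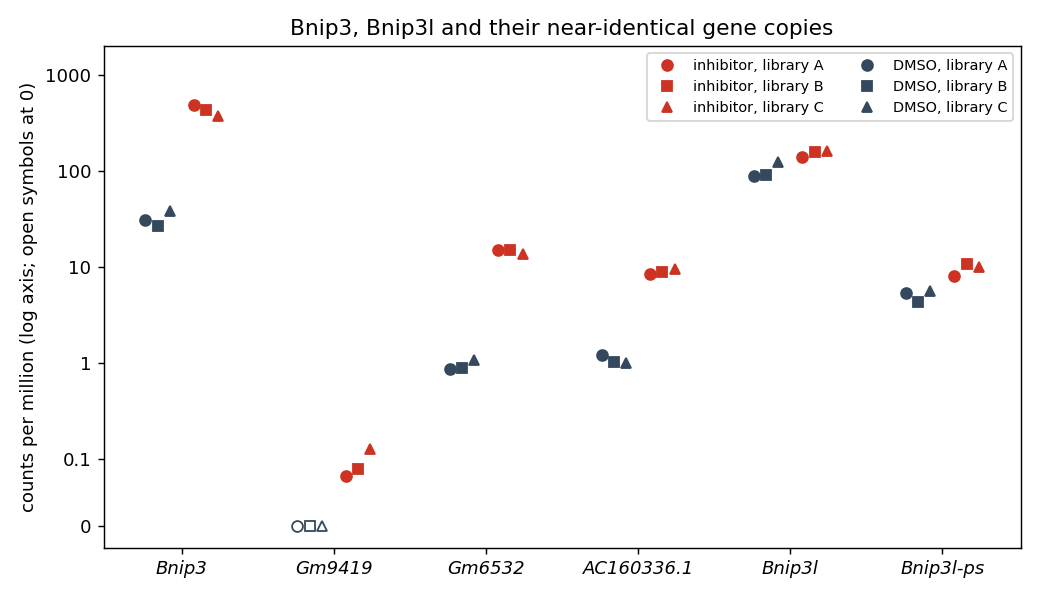
CPM (log axis, 0 drawn at the bottom) of Bnip3, Bnip3l and their copies in each library, 3 per treatment. Gm6532 and AC160336.1 show the separation of Bnip3 at a level more than an order of magnitude lower with the inhibitor, and Bnip3l and Bnip3l-ps a smaller one.

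All 15 other receptors, adaptors and ATG8 proteins of mitophagy on the list were tested, and 2 of them were called, both higher, beside 6.25% of all tested genes. The median log2 fold change was 0.0753, beside 0.0411 for all tested genes. This median fell to -0.086 without inhibitor library B and to -0.0492 without DMSO library A. Gabarapl1, an ATG8 protein that binds mitophagy receptors, rose from 36.9 to 40.2 CPM with DMSO to 93.7 to 113 CPM with the inhibitor (log2 fold change 1.46, standard error 0.129, higher in 3 of 3 libraries, edgeR adjusted p = 0.00104). Optn, an autophagy adaptor for ubiquitin-tagged mitochondria, rose from 53.3 to 67.9 CPM to 135 to 205 CPM (log2 fold change 1.34, edgeR adjusted p = 0.00731). With a limit of 0.05 on the adjusted p alone, 4 genes of the list were higher and 2 lower. The 2 lower genes, named after their values were seen, were Map1lc3a and Fkbp8. Map1lc3a had 1100 to 1150 CPM with DMSO and 589 to 684 CPM with the inhibitor (log2 fold change -0.84, edgeR adjusted p = 0.000993). Fkbp8 had 210 to 230 CPM with DMSO and 118 to 165 CPM with the inhibitor (log2 fold change -0.60, edgeR adjusted p = 0.0325).

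Ddit4 (REDD1), which restrains the growth kinase complex mTORC1 through TSC1 and TSC2, varied most between DMSO libraries. The gene (ENSMUSG00000020108) lies on chromosome 10, from 59949669 to 59951834 on the minus strand. Its CPM was 16.4, 13.6 and 11.4 with the inhibitor and 6.44, 0.0924 and 0.0368 with DMSO, the latter from 392, 6 and 2 counts. The treated libraries were alike and lay above all DMSO libraries, while DMSO library A stood far above the other DMSO libraries. The log2 fold change was 2.66 (standard error 1.61), and edgeR's coefficient of variation between libraries was 1.21 for this gene, beside a median of 0.426 over all tested genes. Ddit4 was not called. Without DMSO library A its log2 fold change was 7.67 and it was called, and with each other library left out in turn the value was 2.08 to 2.78. Over the other alternatives it ran from 2.28 to 5.68.

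Of 10 other genes that restrain mTORC1 or carry its input, 9 were tested. Of these, 2 were called higher and 1 lower, beside 6.25% and 4.16% of all tested genes. Sesn2, a leucine sensor induced by stress, rose from 69.9 to 94.4 CPM with DMSO to 182 to 192 CPM with the inhibitor (log2 fold change 1.18, edgeR adjusted p = 0.00229, higher in 3 of 3 libraries). Tsc1, which stabilises TSC2, had 28.8 to 37.6 CPM against 7.47 to 18.1 CPM (log2 fold change 1.29, edgeR adjusted p = 0.052). Sesn3 had 8.35 to 14.5 CPM against 18 to 29 CPM (log2 fold change -1.01, edgeR adjusted p = 0.0821). The call of Tsc1 was lost without any single inhibitor library or without DMSO library A, and that of Sesn3 in each case except without DMSO library C. Their log2 fold changes then ran from 1.16 to 1.36 and from -1.15 to -0.80. With the library letter as a replicate block both calls were also lost, at 1.36 (edgeR adjusted p = 0.112) and -1.02 (edgeR adjusted p = 0.171). The median of the list was -0.0905, and 0.115 with library size as the only scaling.

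Vegfa, the growth factor of endothelial cells, was low and uneven. The gene (ENSMUSG00000023951; chromosome 17, 46016993 to 46032369, minus strand) had 2.06, 1.10 and 8.85 CPM with the inhibitor and 1.36, 0.446 and 1.40 CPM with DMSO. The groups overlapped, because inhibitor library B lay below DMSO libraries A and C. Library C of the treated group set the log2 fold change of 1.90 (standard error 0.936), which was 0.56 without it. Vegfa was not called with any library left out. Of 9 other VEGF ligands and receptors, only 3 had enough counts to be tested. Of these, 1 was called lower, beside 4.16% of all tested genes. That gene, the co-receptor Nrp2, had 0, 2 and 6 counts with the inhibitor and 38, 215 and 47 with DMSO, which is low even where it was highest. Its log2 fold change was -5.66 with a standard error of 1.46 (edgeR adjusted p = 0.0458), and the call was lost without inhibitor library B or DMSO library B, at -5.44 and -4.56.

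Adm, which encodes the vasodilator peptide adrenomedullin, had 70 counts (0.936 CPM) in inhibitor library A and 0 counts in the other 5 libraries. It lies on chromosome 7 from 110627661 to 110629820 on the plus strand (ENSMUSG00000030790). A count of 0 allows up to 3 counts, or 0.03 to 0.0552 CPM depending on the library, so the single library with reads stood well above that floor and no difference between treatments could be read from it. Of 9 relatives, receptors and processing enzymes of the peptide, 5 were at 0 in every library. Pam, which amidates adrenomedullin and other peptide hormones, had enough counts and lay at 84.5 to 113 CPM with the inhibitor and 93.0 to 126 CPM with DMSO. The receptor-modifying Ramp3 had 309 counts in inhibitor library B, 123 in DMSO library A and 0 elsewhere.

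Car9, a carbonic anhydrase of the cell surface that helps to export acid, was not detected at this depth. The gene (ENSMUSG00000028463; chromosome 4, 43506966 to 43513729, plus strand) had 0 counts in all 6 libraries, which allows at most 0.03 to 0.0552 CPM. Of 16 other carbonic anhydrases and acid or bicarbonate transporters, 6 were tested. Of these, 1 was called lower, beside 4.16% of all tested genes. Car2, a carbonic anhydrase of the cytosol, fell from 100 to 112 CPM with DMSO to 34.9 to 50.7 CPM with the inhibitor (log2 fold change -1.31, standard error 0.165, lower in 3 of 3 libraries, edgeR adjusted p = 0.00376).

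Ankrd37, a small ankyrin-repeat protein whose gene is a HIF target in several cell types, was low with DMSO and moderate with the inhibitor. It had 11.6, 13.7 and 13.3 CPM with the inhibitor and 0.592, 0.831 and 1.14 CPM with DMSO. Every treated library lay about an order of magnitude above every DMSO library. The fold was 15.1 (log2 fold change 3.91, standard error 0.406). The gene (ENSMUSG00000050914; chromosome 8, 45996902 to 46005707, minus strand) shares 22.7% of its exon bases with Lrp2bp and 3.7% with Ufsp2 on the other strand, and strand was not kept. Lrp2bp stayed at or under 0.184 CPM, which does not show how reads in the shared bases were assigned. Ufsp2 had 36.1 to 40.7 CPM with the inhibitor and 58.4 to 65.0 CPM with DMSO, a difference in the other direction.

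Ndrg1, a stress-induced protein of vesicle traffic and differentiation, showed the smallest difference of the 5 called genes. The gene (ENSMUSG00000005125; chromosome 15, 66929318 to 66969640, minus strand) had 21.2, 32.5 and 29.8 CPM with the inhibitor and 11.0, 5.62 and 7.84 CPM with DMSO. The groups were separate, with inhibitor library A and DMSO library A nearest to each other. The fold was 3.41 (log2 fold change 1.77, standard error 0.326). Ndrg2, Ndrg3 and Ndrg4 were not called. Sgk1, a kinase that phosphorylates NDRG1, fell from 211 to 243 CPM with DMSO to 83.3 to 132 CPM (log2 fold change -1.06, standard error 0.175, edgeR adjusted p = 0.0102). It lost its call without inhibitor library C, at -0.89, and with library size as the only scaling, at -0.85.

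Bhlhe40 (DEC1) and Bhlhe41 (DEC2) encode related basic helix-loop-helix repressors that bind E-boxes and act on the circadian clock. Bhlhe40 (ENSMUSG00000030103; chromosome 6, 108660629 to 108666925, plus strand) had 199, 166 and 209 CPM with the inhibitor and 13.6, 8.16 and 13.1 CPM with DMSO. The lowest treated library exceeded the highest DMSO library by an order of magnitude, and its fold of 16.5 (log2 fold change 4.04, standard error 0.240) was the highest of the 8 tested genes. Bhlhe41 (ENSMUSG00000030256; chromosome 6, 145858243 to 145865558, minus strand) had 79.9, 80.7 and 107 CPM with the inhibitor and 15.2, 11.4 and 16.6 CPM with DMSO. These groups were also separate, and the fold was 6.19 (log2 fold change 2.63, standard error 0.216). On the FPKM scale Bhlhe40 was above Bhlhe41 in every library, at ratios of 1.41 to 1.78 with DMSO and 3.87 to 4.91 with the inhibitor. Of the exon bases of Bhlhe41, 19.0% are shared with Gm43909, which had at most 1.18 CPM, and 2.51% of those of Bhlhe40 with 0610040F04Rik, at most 1.06 CPM. These low levels do not show how reads in the shared bases were assigned, as strand was not kept.

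Clock genes lay above 0 on the log2 scale in 9 of 9 cases (median 0.894), and 2 were called, both higher. Of all tested genes, 51.8% lay above 0 and 6.25% were called higher. The groups overlapped for the 7 clock genes not called. These ran from Cry1 at 0.008 (standard error 0.233) to Per1 at 1.40 (standard error 1.04), both named after their values were seen. Where a library was left out, 8 or 9 of the 9 were above 0. Nr1d1 (REV-ERBα), a repressor of Arntl, rose from 3.80 to 8.28 CPM with DMSO to 18.3 to 26.4 CPM with the inhibitor (log2 fold change 1.95, standard error 0.356, higher in 3 of 3 libraries, edgeR adjusted p = 0.0144). Cry2, a repressor of the CLOCK complex, had 62.4 to 66.9 CPM against 24.3 to 42.1 CPM (log2 fold change 1.0, edgeR adjusted p = 0.0267). Cry2 sat at the fold limit and dropped below it without inhibitor library A or C or without DMSO library A or C, at 0.83 to 0.99.

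**Figure D3:**
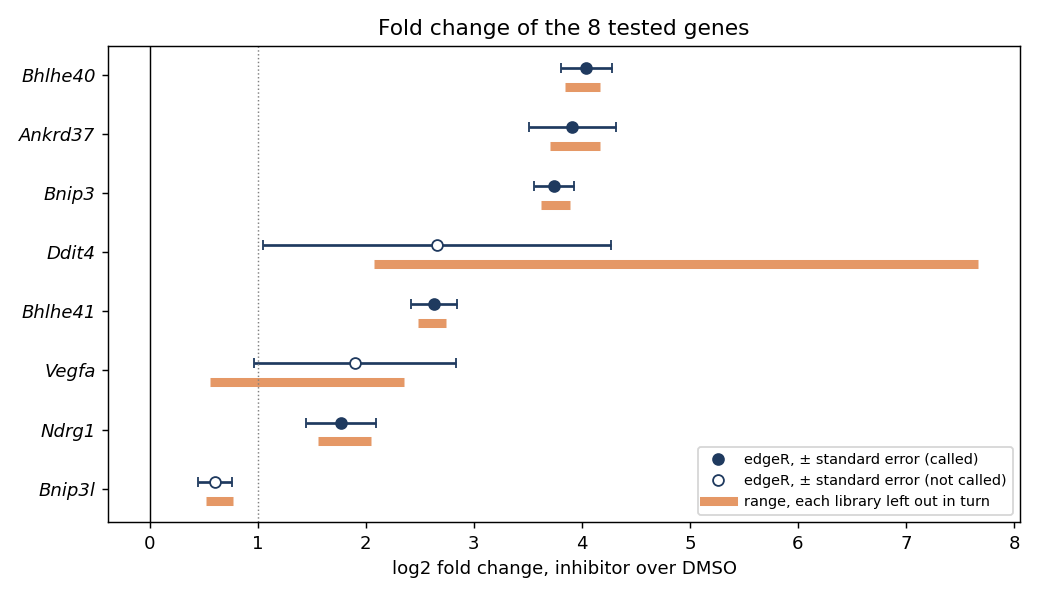
Log2 fold change (inhibitor over DMSO, edgeR) of the 8 tested genes with its standard error, filled where called, and below it in orange the range with each library left out in turn. The dotted line is the fold limit of the call. The range is narrow for 6 genes and wide for Ddit4 (2.08 to 7.67) and Vegfa (0.56 to 2.35).

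Between genes, levels were compared per length, in FPKM as mean ± SD of 3 libraries. With DMSO, Bnip3l was highest at 28.1 ± 5.54, followed by Bnip3 at 15.9 ± 3.04, and the libraries of these genes did not overlap. Bhlhe40 (3.37 ± 0.878), Ndrg1 (2.59 ± 0.863) and Bhlhe41 (2.11 ± 0.397) came next and overlapped with their neighbours in this order. Ankrd37 had 0.847 ± 0.274 and Vegfa 0.279 ± 0.141, while Ddit4 at 1.15 ± 1.93 spanned the range from Vegfa to Ndrg1 and beyond. With the inhibitor the order began with Bnip3 at 212 ± 28.2, Bhlhe40 at 55.3 ± 6.18 and Bnip3l at 42.8 ± 3.46, each separate from the next. Bhlhe41 (13.0 ± 2.20) and Ankrd37 (12.7 ± 1.14) overlapped, as did Ndrg1 (8.84 ± 1.91) and Ddit4 (7.21 ± 1.32). Vegfa stayed at the end of the detected genes, at 1.04 ± 1.10.

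By mean FPKM among all genes, Bnip3 ranked 3663rd with DMSO and 424th with the inhibitor, and Bhlhe40 7129th and 1554th. Bnip3l went from 2620th to 1909th. The FPKM of the 10 genes summed to 45.17 to 63.97 with DMSO and to 334.0 to 374.5 with the inhibitor. Bnip3 made up 28.4% to 30% of this sum with DMSO and 54.7% to 63.8% with the inhibitor. The treated library with the highest level differed between genes: of the 8 tested genes, 2 were highest in library A, 2 in library B and 4 in library C. This does not show whether a difference rests on a single library. The log2 fold change of Vegfa was 1.90, and 0.56 without inhibitor library C. That of Ddit4 was 2.66, and 7.67 without DMSO library A.

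**Figure D4:**
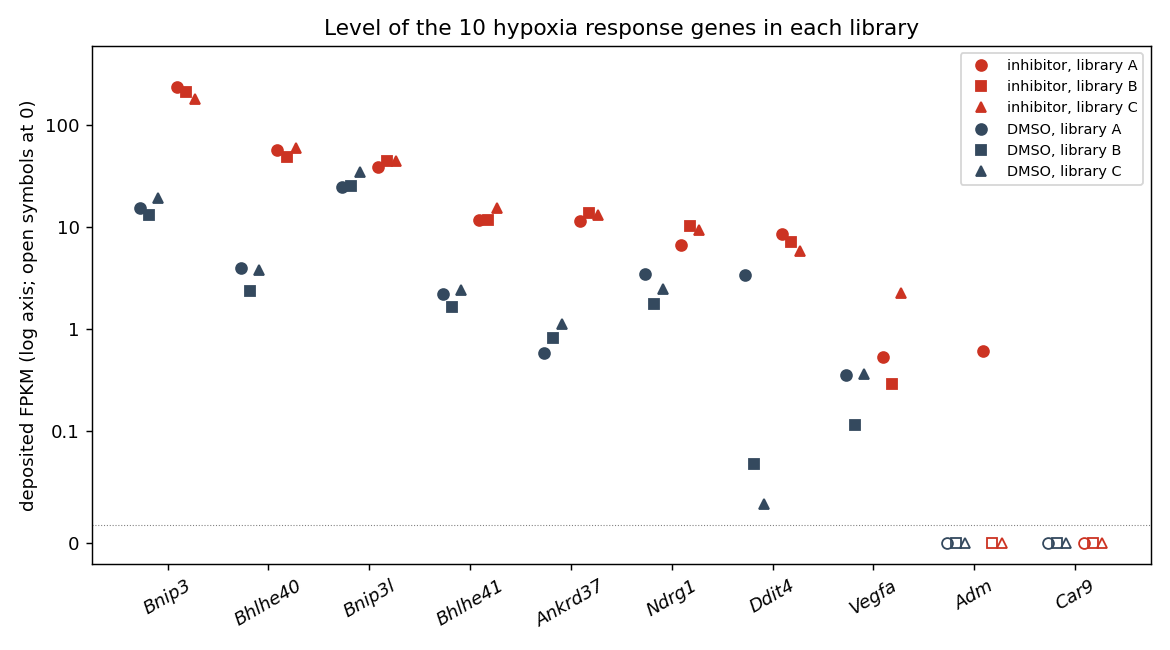
Deposited FPKM of the 10 genes in each library (log axis, open symbols at 0), ordered by mean level with the inhibitor. The groups are separate for Bnip3, Bhlhe40, Bnip3l, Bhlhe41, Ankrd37, Ndrg1 and Ddit4 and overlap for Vegfa, while Adm has reads in 1 library and Car9 in 0.

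For comparison, 20 further HIF targets outside glycolysis were listed. Of these, 13 were tested and 7 were not, with 5 at 0 in every library. Of the 13 tested, 9 were called, each higher, beside 6.25% of all tested genes. The median log2 fold change was 1.65, beside 0.0411 for all tested genes. Since HIF targets were already known to be higher in these libraries, these values are a description as well and not independent evidence of the direction. P4ha2, a prolyl hydroxylase of collagen, had 178 to 210 CPM with DMSO and 791 to 861 CPM with the inhibitor (log2 fold change 2.12, standard error 0.0866). Ero1l, an oxidase of the endoplasmic reticulum, had 11.9 to 17.2 CPM with DMSO and 73.7 to 83.0 CPM with the inhibitor (log2 fold change 2.42). Hmox1, which degrades heme and is also induced by oxidative stress, had 50.8 to 53.5 CPM with DMSO and 209 to 274 CPM with the inhibitor (log2 fold change 2.25). Fam162a, a mitochondrial protein, had 65.2 to 78.1 CPM with DMSO and 291 to 306 CPM with the inhibitor (log2 fold change 2.09). Each was higher in 3 of 3 libraries. The remaining 5 called genes, named here after their values were seen, were Kdm3a, P4ha1, Tfrc, Ankzf1 and Egln1, with log2 fold changes of 1.08 to 2.04. Higd1a (0.12), Mxi1 (0.89), Egln3 (1.54, standard error 1.94) and Cited2 (-0.41) were not called, also named after their values were seen. Egln3, like Ddit4, was high in DMSO library A (4.54 CPM) and near 0 in DMSO libraries B and C (0 and 0.0368 CPM).

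**Figure D5:**
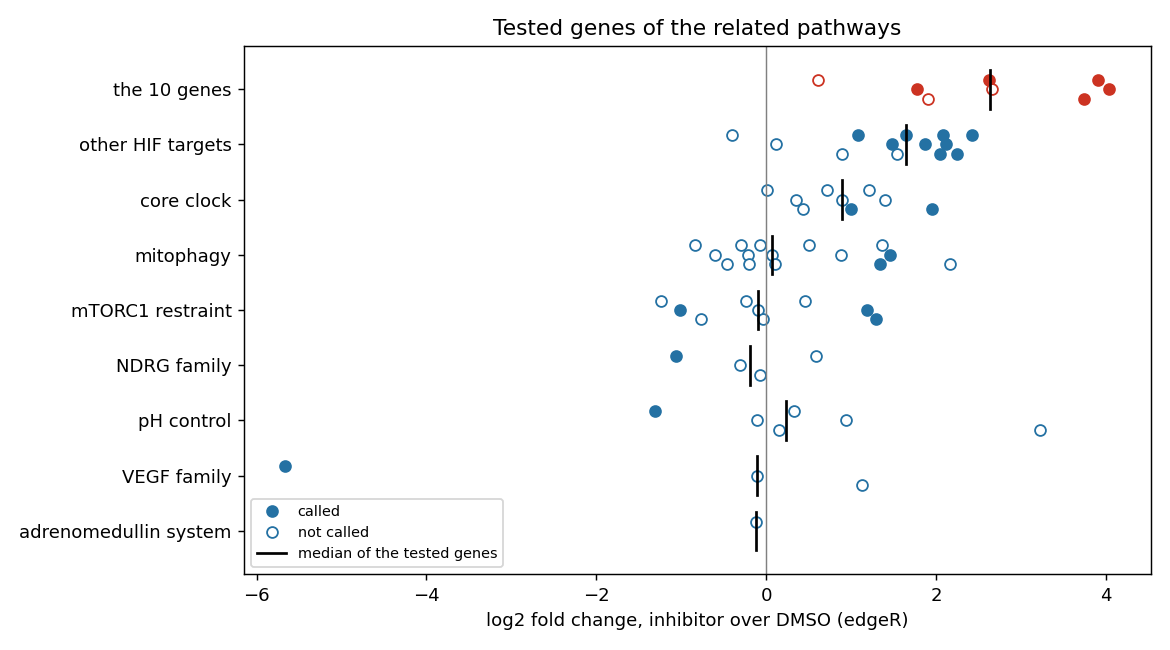
Log2 fold change (inhibitor over DMSO, edgeR) of the tested genes among the 10 and in 8 related lists, filled where called, with the median of each as a bar. The other HIF targets (median 1.65) and clock genes (0.894) lie mostly to the right of 0, while mitophagy, mTORC1, NDRG, pH, VEGF and adrenomedullin genes lie on both sides or are too few, and the medians of the mTORC1, NDRG, VEGF and adrenomedullin lists move from below to above 0 with library size as the only scaling.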

How the data were processed

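RNA of 6 libraries, 3 per treatment, was analysed. The authors mapped the reads with STAR (2.7.9a per the submitters' processing notes) to GRCm38 with Ensembl basic transcripts, counted them in Union mode ignoring strand and secondary alignments, and summed the counts per gene; these deposited counts are not normalized. The authors also deposited FPKM values, whose making is not given in the sources used here.

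Counts were tested in R 4.3.3 with edgeR 4.0.16 (filterByExpr with a minimum count of 10 and total of 15, TMM, quasi-likelihood, Benjamini-Hochberg adjustment over all tested genes, two-sided). Standard errors are the absolute log2 fold change over the root of F. A call needed an adjusted p of 0.1 or less and a log2 fold change of 1 or more in size, the limits of the study's methods. The genes and lists were chosen with earlier results of these data known. All 10 genes are named, and from each list up to 4 called genes by smallest p-value or, with none called, up to 2 of highest mean FPKM; any other gene was chosen after its values were seen.

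Alternatives were DESeq2 1.42.0, other scalings, filters and thresholds, limma 3.58.1 on log2(FPKM + 1) or log2(FPKM + 0.1), thinned counts, a replicate block and each library left out. Library letters are those of the columns. Copies of at least 100 bases at 95% identity were found with blastn 2.17.0. Promoters are from RefSeq, and gene positions matched GENCODE vM21.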

Additional observations from a re-analysis of the deposited data

How the results depend on the processing

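The number of the 10 genes called higher was 5 and ran from 4 to 6 over 18 alternatives. It was 4 with glmTreat, which tests against a log2 fold change of 1 and lost Ndrg1. It was 6 with limma on FPKM or without DMSO library A, which added Ddit4, and with a limit of 0.05 on the adjusted p alone, which added Bnip3l. With at least 10 counts in every library Ddit4 could not be tested. Over 143 fits of single genes, 137 left the call as it was, 1 lost it, 5 gained it and 0 reversed the direction. For the named list genes, 41 of 267 fits lost a call. Pam changed sign, from -0.12 to 0.0849 with library size only and to 0.00503 without inhibitor library C (range -0.235 to 0.00503 with each library left out).

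The 943 genes called higher became 1498 with DESeq2, 565 with limma on log2(FPKM + 1) without a minimum and 150 with glmTreat. The 628 called lower became 392 with library size only, 1020 with DESeq2, 1177 with the limit of 0.05 on the adjusted p alone, and 135 with glmTreat. Library size only moved the median log2 fold change of all genes from 0.0411 to 0.246. The log2 fold changes of the 8 tested genes were higher by a like amount. The other HIF targets called numbered 6 to 10 against 9.

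The columns carry letters that match no replicate number in the labels, and same-lettered libraries did not deviate together (r = 0.00672, 0.00228 and 0.0185 across genes). With the letter as a replicate block, 741 genes were called higher and 496 lower, and the count of the 10 genes stayed at 5. Of the named genes that were called, Tsc1 and Sesn3 lost the call with the block. Counts thinned to the lowest library total gave log2 fold changes of 2.67 for Ddit4 and 1.90 for Vegfa, beside 2.66 and 1.90 without thinning.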
